A study of Mus musculus with 24 samples.

Results

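Neurexins, neuroligins and leucine-rich repeat transmembrane proteins (LRRTMs) are partners in adhesion across the synaptic cleft. Neurexins sit mainly on the axon terminal, and neuroligins and LRRTMs on the postsynaptic side bind them there. Neuroligin 1 is best known from excitatory synapses, neuroligin 2 from inhibitory synapses, and the LRRTMs from excitatory synapses. Most neurons of the nucleus accumbens (NAc), part of the ventral striatum and of the reward circuit, are inhibitory projection neurons that receive excitatory input from cortex, hippocampus, amygdala and thalamus, so that both kinds of contact are present on the same cells. The 8 genes described here are Nrxn2, Nrxn3, Nlgn1, Nlgn2, Lrrtm1, Lrrtm2, Lrrtm3 and Lrrtm4, out of 52636 genes counted. They were chosen by name, with earlier results of these data known. All 8 passed the filter on low counts in each of the 5 comparisons.

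RNA-seq counted transcripts in bilateral NAc punches from 24 mice at an age of 50 days (C57BL/6 in the labels, C57BL/6J in the study's methods), with 1 library per animal and 6 animals in each of 4 groups. Control (Con) females and Con males grew up without stress, and females and males of the other groups were separated from a dam that was also stressed at unpredictable times (MSUS), on postnatal days 1 to 14. The labels of the 4 groups name no transgene and no drug. The daily separation is given as a different number of hours in the labels and in the study's methods. The libraries were rRNA-depleted with no poly(A) selection, which leaves unspliced transcripts in.

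The sense-strand counts summed to between 39923666 and 70575745 read pairs per library. Counts of the 8 genes lay between 1867 and 33239 pairs in single libraries, so that counting error was small beside the spread between animals. All 24 libraries matched their labelled sex. The 8 striatal projection neuron markers examined, Ppp1r1b, Rgs9, Drd1, Drd2, Adora2a, Penk, Tac1 and Pdyn, were detected in every library, with a summed level of 1318 to 3815 CPM (counts scaled by library size) in the labelled tissue. The 7 cortical excitatory neuron markers examined (Slc17a7, Tbr1, Neurod6, Rorb, Cux2, Fezf2 and Slc30a3) summed to 255 to 1596 CPM in Con females, 129 to 719 CPM in MSUS females, 162 to 1087 CPM in Con males and 174 to 1595 CPM in MSUS males, and none of them was at 0 in any library. In Con females the lowest striatal sum, 1318 CPM, was below the highest cortical sum. In MSUS males the lowest striatal sum, 1648 CPM, was close to the highest cortical sum. The lowest striatal sums of MSUS females (2466 CPM) and Con males (2118 CPM) lay well above the cortical sums of their groups. Detection of the striatal markers thus does not show how much of a punch was striatal. The share of counted pairs that fell in no annotated exon on the sense strand was 31.3% to 35.1% in Con females and 36.7% to 44.2% in MSUS females, without overlap (difference 7.27 percentage points, exact two-sided permutation test, p = 0.00216, the smallest this design allows). In males the ranges were 35.0% to 40.9% (Con) and 32.5% to 45.02% (MSUS), and the difference was -0.898 percentage points (exact permutation p = 0.684). Both library properties are given again beside the genes that move with them. In bulk tissue, fewer cells of a type and less RNA per cell cannot be told apart.

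Levels were first compared between the genes per length, as CPM per kb of annotated exon averaged over the 24 libraries. Nlgn2 had the highest level with 53.1 ± 3.70 CPM per kb (SD, n = 24). It was followed by Nrxn3 with 39.9 ± 2.70, Lrrtm3 with 30.3 ± 4.16 and Nrxn2 with 25.9 ± 3.46 CPM per kb. Lrrtm1 had 16.2 ± 2.04, Lrrtm2 12.8 ± 1.60, Nlgn1 10.1 ± 1.00 and Lrrtm4 9.44 ± 0.868 CPM per kb. The partner known from inhibitory synapses thus had the highest level of the 8, and the neuroligin known from excitatory synapses was second from the bottom. Among 15244 protein-coding genes Nlgn2 lay above 96.3% and Lrrtm4 above 68.9% on this scale. Nlgn2 was above Nrxn3, Nrxn3 above Lrrtm3, and Nrxn2 above Lrrtm1 in 24 of 24 libraries. The other neighbours overlapped: Lrrtm3 was above Nrxn2 in 19 libraries, Lrrtm1 above Lrrtm2 in 19, Lrrtm2 above Nlgn1 in 23 and Nlgn1 above Lrrtm4 in 16. The exon lengths are those of the union of all annotated transcripts, so that a gene with many unused exons is understated.

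**Figure D1:**
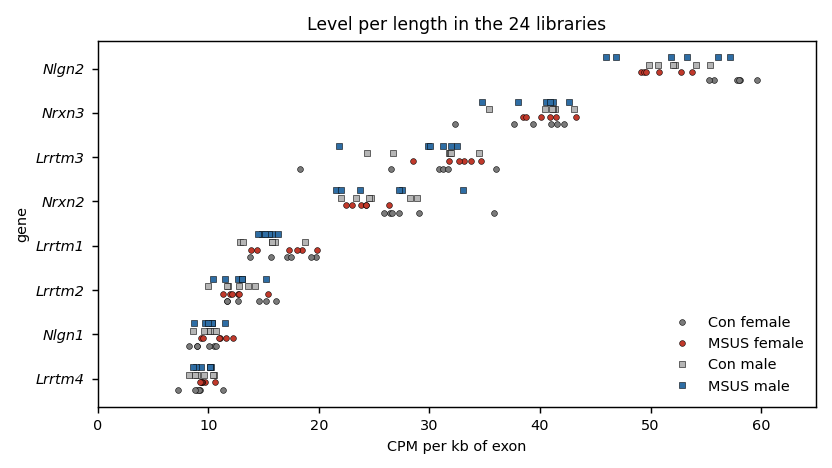
Level of each gene in CPM per kb of exon (x axis) in the 24 libraries, 1 point per animal and 1 row of points per group within each gene. Nlgn2 lies to the right of Nrxn3 in every library, and Nlgn1 and Lrrtm4 overlap at the low end.

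The first question was whether MSUS changed these genes in females. Levels of a gene are given as normalized counts, which are counts divided by a size factor per library, and a gene was called when its p value, adjusted over all genes tested in the comparison, was below 0.10. The counts measure RNA in the whole punch and hold no information on the sides of a synapse. Nrxn2, 1 of the neurexin genes, fell in MSUS females. Con females ran from 18809 through a median of 19720 to 26052 normalized counts, and MSUS females from 16372 through 17596 to 19249. The 6 MSUS values were all under the median of the Con group, and the ranges overlapped only between the highest MSUS female and the lowest Con female. The means were 20815 ± 2689 and 17558 ± 1006 (SD, n = 6 each), a fall of 15.4% (log2 fold change -0.24, SE 0.073, 95% interval -0.40 to -0.08, adjusted p = 0.0409, edgeR quasi-likelihood test). Con female 3, the highest of the 24 libraries in Nrxn2 and second highest in cortical markers, contributed to the spread of the Con group. When single animals were removed its log2 fold change stayed between -0.27 and -0.17 and the adjusted p between 0.0269 and 0.0965.

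Nrxn3, the other neurexin gene examined, ran from 21406 through a median of 26826 to 28085 normalized counts in Con females, and from 25631 through 27050 to 28724 in the MSUS group. The groups overlapped over most of their range. The log2 fold change was 0.06 (SE 0.061, 95% interval -0.07 to 0.19, adjusted p = 0.529), which does not pass the threshold. The interval leaves out a change of the size seen for Nrxn2 in the same direction.

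Of the genes of postsynaptic partners Nlgn2, the neuroligin of inhibitory synapses, fell in MSUS females by a smaller amount but without overlap. Con females ran from 16822 through 17746 to 18313 normalized counts, and MSUS females from 15012 through 15295 to 16500 (lowest, median, highest). Every MSUS female lay below every Con female, which held in this direction for 3.41% of all genes tested. The means were 17565 ± 559 and 15576 ± 640 (SD, n = 6 each), a fall of 11.1% (log2 fold change -0.17, SE 0.036, 95% interval -0.25 to -0.09, adjusted p = 0.00998). Leaving out single animals kept the log2 fold change between -0.18 and -0.16.

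Nlgn1, the neuroligin of excitatory synapses, had values on the other side. Con females ran from 5816 through 6777 to 7591 normalized counts, and MSUS females from 6641 through 7846 to 8651. The 2 lowest MSUS females lay within the Con range and 4 of 6 were above the Con median. The log2 fold change was 0.18 (SE 0.080, 95% interval 0.01 to 0.35, unadjusted p = 0.0439), and the adjusted p of 0.141 did not pass the threshold. It passed when Con female 6 was left out (0.21, adjusted p = 0.093) or MSUS female 1 (0.22, adjusted p = 0.0724), fits in which 25.8% and 27.7% of all genes passed, and not in the other 10 such fits.

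The promoters of the neuroligin pair are shown so that the base composition at the starts of the inhibitory and the excitatory neuroligin gene can be read beside their values. No test related promoter sequence to the comparison of the groups. Both are RefSeq sequences of build GRCm38.p6 from 250 bases before to 50 bases after an annotated start, read on the minus strand 5′ to 3′, at chr11:69837735-69838034 for Nlgn2 and chr3:26331860-26332159 for the upstream start of Nlgn1. Capitals mark matches to the GC box letters GGGCGG and the CACCC box letters CCACCC on either strand.
Nlgn2: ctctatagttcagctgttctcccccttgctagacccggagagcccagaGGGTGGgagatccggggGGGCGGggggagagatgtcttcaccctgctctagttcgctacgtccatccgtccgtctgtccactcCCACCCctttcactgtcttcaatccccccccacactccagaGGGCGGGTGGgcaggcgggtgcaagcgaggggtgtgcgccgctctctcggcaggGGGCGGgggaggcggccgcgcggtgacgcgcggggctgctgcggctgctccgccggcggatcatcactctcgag
Nlgn1: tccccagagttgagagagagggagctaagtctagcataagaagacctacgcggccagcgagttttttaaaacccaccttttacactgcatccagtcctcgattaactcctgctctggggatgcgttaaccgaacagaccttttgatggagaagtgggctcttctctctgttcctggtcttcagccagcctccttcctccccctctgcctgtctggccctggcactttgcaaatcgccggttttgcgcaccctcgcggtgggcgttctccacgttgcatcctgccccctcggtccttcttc
The Nlgn2 window held 3 GC box matches and 3 CACCC box matches, of which 1 pair shared bases, and the Nlgn1 window held neither. A second annotated start of Nlgn1, at chr3:26153937-26154236 on the same strand, had 1 CACCC box match, no GC box match, 6 CpG dinucleotides and a GC content of 44.7%. A GC box match was present in 35.7% and a CACCC box match in 31.5% of the 32851 promoters of this length. The Nlgn2 window had 26 CpG dinucleotides and a GC content of 68.7%, and that of Nlgn1 had 14 and 55.7%, against medians of 7 and 52.7% over all promoters. RefSeq promoters were at hand for 6 of the 8 genes.

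None of the 4 LRRTM genes passed the test in females. Lrrtm1 ran from 2199 through a median of 2779 to 3185 normalized counts in Con females and from 2215 through 2835 to 3182 in the MSUS group, which is nearly the same range (log2 fold change -0.01, SE 0.104, 95% interval -0.24 to 0.21). Lrrtm2 had 3715, 4338 and 5103 in Con females and 3615, 3947 and 4894 in MSUS females, and 5 of 6 MSUS females lay below the Con median (-0.10, SE 0.093, interval -0.30 to 0.10). These ranges overlapped almost entirely. Lrrtm3 had 4095, 6984 and 8137 in Con females and 6409, 7412 and 7823 in MSUS females, with Con female 3 far below the other Con animals (0.16, SE 0.127, interval -0.12 to 0.44). Lrrtm4 had 2352, 2962 and 3650 in Con females and 3029, 3075 and 3442 in MSUS females (0.09, SE 0.078, interval -0.08 to 0.25). For Lrrtm4 the 6 MSUS values were all over the median of the Con group but inside its range. Adjusted p values of the 4 genes lay between 0.402 and 0.944, and the intervals still allow changes as large as that of Nlgn2 in at least 1 direction for each of them.

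In all, 2 of the 8 genes passed the test in females, both lower, and their median log2 fold change was 0.02 against -0.0027 over all genes tested. Over the 20571 genes tested 25.1% passed, 11.9% as lower. The share of the 8 that passed was therefore at the background. Within libraries 1 to 12 and within 13 to 24, sets the labels number with 3 animals a group in each, the log2 fold changes were -0.30 and -0.18 for Nrxn2 and -0.17 and -0.17 for Nlgn2, with adjusted p of 0.218 to 0.319.

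Markers of oligodendrocytes, the myelinating cells, moved in the same comparison and in the same direction. Of the 5 examined (Mbp, Mag, Mobp, Mog and Opalin) 4 were called lower in MSUS females and none higher, with a median log2 fold change of -0.28. Over all genes tested 11.9% were called lower. Mbp, which encodes a main protein of myelin, fell by 0.30 on the log2 scale (adjusted p = 0.0231) and Mag by 0.28 (adjusted p = 0.0128). The 5 markers summed to 2439 to 3700 CPM in Con females and 2177 to 2681 CPM in MSUS females, against 2652 to 3587 and 2670 to 3348 CPM in Con and MSUS males, and none was at 0 in any library. Their part in the results for Nrxn2 and Nlgn2 was not tested. Of 5 astrocyte markers 1 was called lower in MSUS females. Of 8 striatal, 5 microglial and 5 endothelial markers 0 passed with edgeR or DESeq2, with 0, 1 and 3 at an unadjusted p under 0.05.

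**Figure D2:**
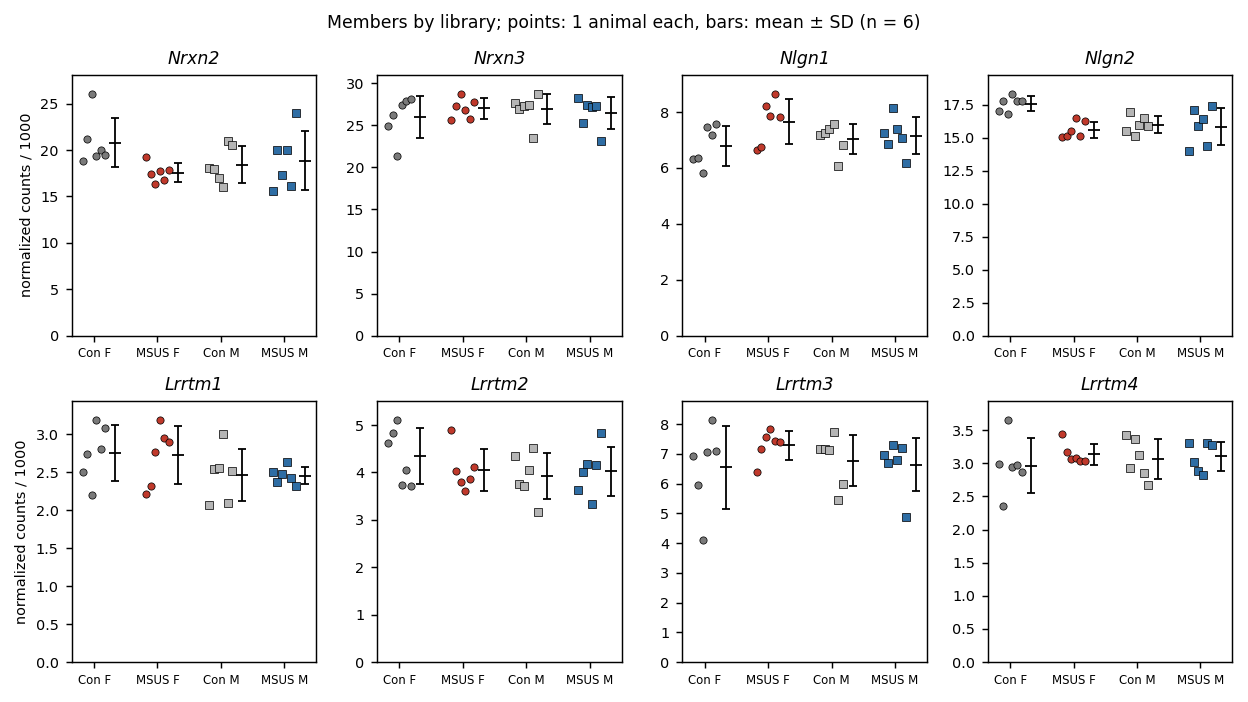
Normalized counts, divided by 1000 (y axis, starting at 0), of each gene in the 4 groups (x axis; F, female; M, male), 1 point per animal in replicate order, with mean ± SD (n = 6) beside the points. Nlgn2 separates Con from MSUS females, Nrxn2 nearly does, and the male groups overlap for all 8 genes.

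Males were then compared in the same way, to ask whether the changes were shared. None of the 8 genes passed the test, and of all 20691 genes tested 0 passed (0%) with edgeR, 191 having an unadjusted p under 0.05, and 0 with DESeq2. None of the 8 had an unadjusted p under 0.05. Nrxn2 had 16030, 18009 and 21024 normalized counts in Con males and 15605, 18677 and 24047 in MSUS males (log2 fold change 0.03, 95% interval -0.20 to 0.26). Nlgn2 had 15149, 15914 and 16968 in Con males and 13963, 16126 and 17428 in MSUS males (-0.02, interval -0.14 to 0.11). The MSUS males spread further to both sides than the Con males for both genes. The log2 fold changes of the 8 genes lay between -0.03 and 0.03, and the widest intervals, those of Lrrtm3 and Nrxn2, reached from -0.25 to 0.19 and from -0.20 to 0.26.

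Whether females and males differed in their response was tested as a group-by-sex interaction over the 24 libraries, in which 0 of 21500 genes passed with edgeR (0%), with 4031 at an unadjusted p under 0.05, and 467 with DESeq2 (2.17%), none of them among the 8. Nrxn2 had an interaction of -0.28 on the log2 scale (SE 0.134, unadjusted p = 0.0483, adjusted p = 0.265), and Nlgn2 of -0.16 (SE 0.068, unadjusted p = 0.0272, adjusted p = 0.234). The other 6 lay between -0.14 and 0.19 with unadjusted p values of 0.173 to 0.929. A difference between the sexes in the response of Nrxn2 or Nlgn2 was thus not shown at the threshold. Without MSUS male 1, 3031 of 21617 genes passed (14%), and Nlgn2 was among them (-0.19, adjusted p = 0.0727). That library was the lowest of the 24 in Nlgn2 and the highest in the share of pairs in no annotated exon (45.02%). The part of this share in the added calls was not tested. No more than 1 gene passed when any other single animal was left out.

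**Figure D3:**
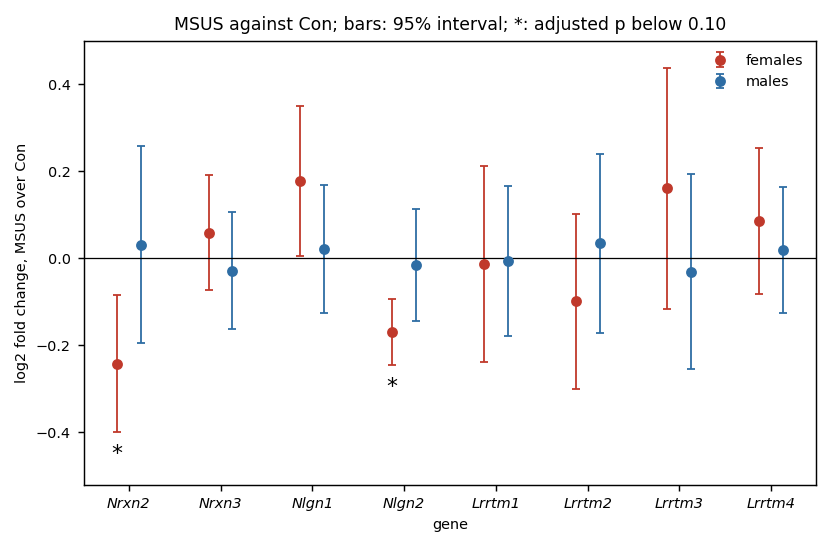
Log2 fold change of MSUS over Con (y axis) for each gene (x axis) in females (red) and males (blue), with 95% intervals and an asterisk where the adjusted p is below 0.10. Nrxn2 and Nlgn2 lie below 0 in females, and all male values lie between -0.03 and 0.03.

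Females and males were also compared within each condition. In Con animals none of the 8 genes passed, with 2.64% of 20641 genes passing. Nlgn2 was nearest to the threshold, with 17565 ± 559 normalized counts in females and 15995 ± 656 in males (SD, n = 6 each, log2 fold change of female over male 0.14, SE 0.041, adjusted p = 0.113), and only the lowest Con female, at 16822, reached into the male range, whose highest value was 16968. Nlgn2 passed with DESeq2 (0.13, adjusted p = 0.0125), where 7.32% of all genes passed, and with counts that ignore strand (0.16, adjusted p = 0.0818), where 5.78% did. The 544 genes called in this comparison became 20 without Con female 4 and 1395 without Con male 5, the extremes of the fits with 1 animal left out. Nrxn2 was higher in Con females by 0.18 (SE 0.087, adjusted p = 0.298), which did not pass. The same Con females enter this comparison and the female MSUS comparison. In MSUS animals none of the 8 passed, with 0.135% of 20714 genes passing, and the differences lay between -0.11 (Nrxn2) and 0.15 (Lrrtm1).

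The 2 genes called in females were those with the most GC-rich transcripts. The longest transcripts of Nrxn2 and Nlgn2 had a GC content of 62.4% and 60.7%, the highest of the 8. The others ran from 54.7% (Lrrtm1), 47.5% (Nrxn3) and 44.5% (Lrrtm3) to 38.9% (Nlgn1), 38.4% (Lrrtm2) and 38.4% (Lrrtm4). In the female comparison, 33.8% of 724 protein-coding genes with a GC content of 60% or more were called lower and 0.967% higher, against 3.37% lower and 16.4% higher among 3743 such genes below 45%. With offsets for GC content and transcript length in the fit, the log2 fold changes of Nrxn2 and Nlgn2 were -0.11 (adjusted p = 0.390) and -0.03 (adjusted p = 0.479), so that neither call remained. Lrrtm2 then passed instead (-0.30, adjusted p = 0.0497), and 16.3% of all genes passed in that fit.

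The 8 genes also differed in how they varied with the share of pairs that fell in no gene, which was higher in every MSUS female than in every Con female. Over the 24 libraries, with group means removed, Nlgn2 fell with that share (Pearson r = -0.78, Spearman rho = -0.68, permutation within groups, p = 0.00033 and 0.0021, adjusted p = 0.00132 and 0.00848 over 16 relations). Nrxn2 also fell with it (r = -0.59, rho = -0.56, permutation p = 0.0097 and 0.013, adjusted 0.0172 and 0.0254), and Nrxn3 rose (r = 0.52, rho = 0.53, permutation p = 0.0072 and 0.01, adjusted 0.0144 and 0.0231). Without the 2 libraries farthest from the median share, r was -0.63, -0.38 and 0.38. Within libraries 1 to 12 and 13 to 24, which the labels number, r was -0.71 and -0.89 for Nlgn2, -0.49 and -0.68 for Nrxn2, and 0.56 and 0.72 for Nrxn3. For the other 5 genes r lay between -0.12 and 0.26 with adjusted permutation p of at least 0.329. With the share as a covariate 0 of the 8 genes and 0 of all 20571 genes (0%) passed in females, and the log2 fold changes of Nrxn2 and Nlgn2 were -0.25 and -0.12 (adjusted p = 0.760 for both). As the share did not overlap between these groups, it and the effect of MSUS in females cannot be told apart by this fit.

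Cortical excitatory neuron markers moved with other members of the 8. Their score, the mean log2 CPM of the 7 markers, was 3.79 to 6.20 in Con females (median 4.89) and 1.74 to 5.30 in MSUS females (median 3.204). The difference was -1.64 (exact permutation p = 0.0281). In females 1 of the 7 markers was called lower and none higher, where 11.9% of all genes tested were called lower. With group means removed, Lrrtm2 rose with the score over the 24 libraries (r = 0.85, rho = 0.82, permutation p = 1e-05 for both, the smallest that 100000 resamples can give). Nrxn2 rose with it too (r = 0.57, rho = 0.49, permutation p = 0.0049 and 0.019, adjusted 0.0113 and 0.0331).

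Other members fell as the cortical score rose. They were Nlgn1 (r = -0.79, rho = -0.76), Lrrtm1 (r = -0.77, rho = -0.80), Nrxn3 (r = -0.65, rho = -0.55) and Lrrtm3 (r = -0.60, rho = -0.54), with adjusted permutation p of 0.000213 to 0.00216 for r and 0.00032 to 0.0190 for rho. Nlgn2 (r = 0.19, rho = 0.07, adjusted permutation p = 0.478 and 0.837) and Lrrtm4 (r = 0.22, rho = 0.22, adjusted permutation p = 0.369 and 0.403) did not pass. Without the 2 libraries farthest from the median score r was 0.80 for Lrrtm2, 0.43 for Nrxn2, -0.72 for Nlgn1, -0.76 for Lrrtm1, -0.57 for Nrxn3 and -0.50 for Lrrtm3, and the signs were the same within libraries 1 to 12 and within 13 to 24. The LRRTM genes thus did not vary together among animals: Lrrtm2 followed the cortical markers, Lrrtm1 and Lrrtm3 went against them, and Lrrtm4 did neither. With the score as a covariate in females, Nlgn2 still passed (-0.20, adjusted p = 0.0252), Nrxn2 did not (-0.11, adjusted p = 0.425), and Lrrtm1 passed as lower (-0.26, adjusted p = 0.0728), in a fit in which 9.41% of all genes passed. With the 6 libraries highest in these markers left out (Con females 1, 2 and 3, MSUS female 1, Con male 5 and MSUS male 6), Nrxn2 (-0.17) and Nlgn2 (-0.18) both passed in females (adjusted p = 0.014 for both), as did 19.3% of all genes.

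**Figure D4:**
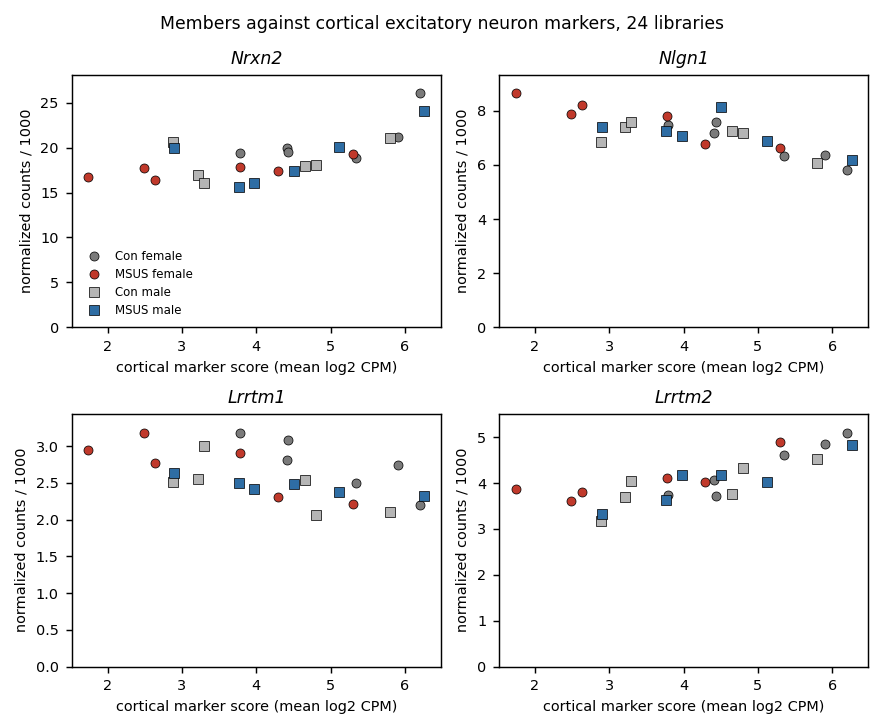
Normalized counts, divided by 1000 (y axes, starting at 0), of 4 genes against the cortical marker score (x axes, mean log2 CPM of 7 markers) in 24 libraries, marked by group. Lrrtm2 and Nrxn2 are highest, and Nlgn1 and Lrrtm1 low, in the libraries at the right, which come from 4 groups.

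Nrxn3, Nlgn1 and Lrrtm4 are among the long genes of the mouse genome, and exons are a small part of them (positions from GENCODE M21 on GRCm38). Nrxn3 spans 1612 kb on chromosome 12 (88722876 to 90334935, plus strand), with exons over 0.782% of it. Nlgn1 spans 906 kb on chromosome 3 (25426215 to 26332460, minus strand, exons 1.48%), and Lrrtm4 791 kb on chromosome 6 (80018877 to 80810143, plus strand, exons 0.777%). Nlgn2 spans 14.7 kb on chromosome 11 (69823122 to 69837784, minus strand), with exons over 39.5% of it, and Nrxn2 125 kb on chromosome 19 (6418731 to 6544169, plus strand, exons 11.01%). Counts in introns of the long genes are available here for 11 short annotated gene models. They lie wholly in these introns on the same strand: 2 in Nrxn3, 1 in Nlgn1 and 8 in Lrrtm4. The annotation gives them no function, and reads from them and from the unspliced host transcript cannot be told apart.

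All 11 models were higher in MSUS females, and 10 of 11 passed the test, with log2 fold changes of 0.67 to 1.04. Among all 1897 gene models that lie in introns of protein-coding genes on the same strand, 52.8% were called higher in MSUS females, so that models in introns of many genes shared this rise. The share of pairs in no annotated exon, which also takes in intronic pairs, was higher in every MSUS female than in every Con female. With that share as a covariate 0 of 11 models, 0 of 1897 models and 0 of all 20571 genes passed. The share and MSUS cannot be told apart in that fit, so it does not bear on the rise of the models. Gm48692 in Nrxn3 (chromosome 12, 89655723 to 89658101), the most abundant, rose from 310 ± 61.5 normalized counts in the Con group to 499 ± 128 in the MSUS group (0.69, SE 0.173, adjusted p = 0.0212). Gm48700 in Nrxn3 (chromosome 12, 90068099 to 90072373) had 227 ± 38.3 and 365 ± 85.3 (0.69, SE 0.154, adjusted p = 0.0124), without overlap between the groups.

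In Lrrtm4 the most abundant models were Gm44230 (chromosome 6, 80268496 to 80272045, 174 ± 60.9 and 303 ± 88.4 normalized counts, 0.81, adjusted p = 0.0348), Gm44240 (80048676 to 80051329, 143 ± 42.2 and 245 ± 60.8, 0.78, adjusted p = 0.0185) and Gm44228 (80217451 to 80219476, 106 ± 35.9 and 193 ± 61.0, 0.87, adjusted p = 0.0294). The single model in Nlgn1, Gm37573 (chromosome 3, 25695195 to 25700303), named after its values were seen, had 69.4 ± 12.6 and 143 ± 41.8 (1.04, SE 0.193, adjusted p = 0.00624), without overlap. No overlap was seen for 2 of the 11 models and for 17.7% of all models in introns. Gm44231 in Lrrtm4, the lowest in counts, was the 1 that did not pass (0.67, adjusted p = 0.122). The 11 models had a GC content of 32.9% to 45.1%, and with offsets for GC content and length 2 of 11 passed, against 26.3% of all 1897 models in introns.

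In males the log2 fold changes of the same 11 models lay between -0.14 and 0.06 and none passed. In Con animals they were lower in females than in males, by -0.87 to -0.56 on the log2 scale, with 2 of 11 called. Of all genes tested 2.64% passed there, and the share over all models in introns was not computed for that comparison. In MSUS animals the differences of the 11 models lay between -0.0031 and 0.26. The exonic counts of the host genes, given before, passed in none of these comparisons. A 66-base microRNA model in Nrxn3, Gm23989, was left out of the count of 11 as too short for a read of its own (19.2 counts per library on average, 0.80 in females, adjusted p = 0.054).

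The intron models were then set against the exonic counts of their host within each library, a ratio chosen after the values above were seen, which restates them per host transcript and is given with no test. In Nlgn1 there were 10.3 ± 1.84 intron-model counts per 1000 exonic counts in Con females (range 7.87 to 12.3) and 18.8 ± 5.84 in MSUS females (range 12.6 to 27.5), without overlap (SD, n = 6 each). In Lrrtm4 the ratio was 265 ± 52.8 and 440 ± 113, and in Nrxn3 20.7 ± 3.68 and 31.9 ± 6.93, with overlap in both. These were ratios of 1.83, 1.66 and 1.54 between MSUS and Con females. In males the ratios of MSUS over Con were 0.950, 0.977 and 0.960. The means of Con females were also below those of Con males for all 3 genes, at 0.569 (Nlgn1), 0.633 (Lrrtm4) and 0.701 (Nrxn3) of the male mean. The share of pairs in no annotated exon stood in the same order in these groups, and its part in the ratios was not tested.

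**Figure D5:**
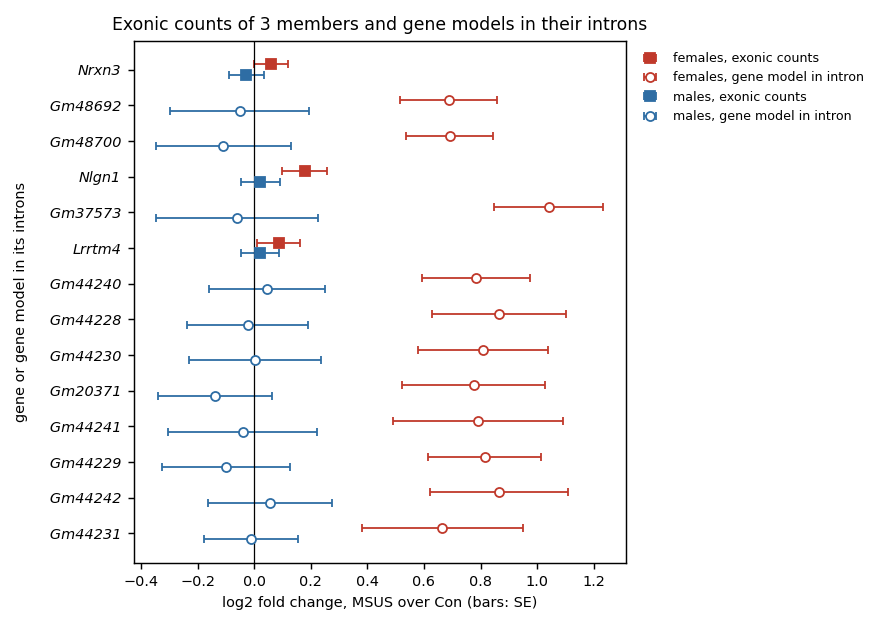
Log2 fold change of MSUS over Con with SE (x axis) for the exonic counts of Nrxn3, Nlgn1 and Lrrtm4 (filled squares) and for the 11 gene models in their introns (open circles) in females (red) and males (blue). In females the models lie between 0.67 and 1.04 while their hosts lie between 0.06 and 0.18, and in males all lie near 0.

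Lrrtm1, Lrrtm2 and Lrrtm3 lie inside alpha-catenin genes on the opposite strand, whose products link cadherins to the cytoskeleton. Lrrtm1 (chromosome 6, 77242689 to 77257791) lies in Ctnna2, Lrrtm2 (chromosome 18, 35209003 to 35215024) in Ctnna1, and Lrrtm3 (chromosome 10, 63928472 to 64090277) in Ctnna3. Counts on the strand opposite to the gene were 4.94%, 2.19% and 0.873% of its sense counts. In females Ctnna2 fell slightly (log2 fold change -0.08, SE 0.029, adjusted p = 0.0951) while Lrrtm1 inside it did not pass, and Ctnna1 (-0.07, adjusted p = 0.370) and Ctnna3 (-0.06, adjusted p = 0.701) did not pass either. Lrrtm4 overlaps an antisense gene, Gm4409, at its 5′ end. Counting without regard to strand kept 34.7% of its sense counts, against 91.0% to 104.9% for the other 7 genes, so that strand matters for its level.

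The other genes of the pathway were described from 72 genes in 7 lists, which were chosen with earlier results of these data known. In females 18 of 72 passed with edgeR, 5 higher and 13 lower, which is 25% and again near the background of 25.1%. With DESeq2 26 of 72 passed, a larger share than the 5786 of 20571 genes called in that fit. The median log2 fold change of the 72 genes with edgeR was -0.08. With edgeR none passed in males, 1 of 72 was called higher in females among Con animals, and none passed in MSUS animals.

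Among 17 further ligands and partners of neurexins 1 was called higher and 4 lower in females. Over all genes tested 25.1% were called, 11.9% as lower. Clstn1 and Clstn3 encode calsyntenins, postsynaptic proteins reported to bind neurexins. Clstn1 fell from 51362 ± 4919 to 41598 ± 2774 normalized counts (-0.30, SE 0.065, adjusted p = 0.0109), and Clstn3 from 18024 ± 974 to 15841 ± 817 (-0.18, adjusted p = 0.018). Adgrl1, a latrophilin that binds neurexins and teneurins, fell from 44084 ± 1315 to 39047 ± 1629 (-0.17, adjusted p = 0.0117). Clstn3 and Adgrl1 did not overlap between the groups, which held in this direction for 3.41% of all genes tested. The genes named here were picked for the smallest p in their list.

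Among 8 presynaptic scaffold genes 4 fell and none rose, where 25.1% of all genes tested passed in females, 11.9% as lower. Lin7b, of the Mint, CASK and Veli complex that binds the neurexin tail, fell from 1444 ± 64.5 to 1249 ± 54.8 (-0.21, adjusted p = 0.00842). Its groups did not overlap, as was so in this direction for 3.41% of all genes tested. Ppfia3, a liprin of the active zone, fell from 7577 ± 872 to 6150 ± 409 (-0.30, adjusted p = 0.0164), and Apba2, which encodes Mint2, from 6235 ± 960 to 5174 ± 422 (-0.27, adjusted p = 0.065). The list was made of presynaptic genes, so that the side of the synapse of these 3 is not a result. The cortical markers moved in the same direction between these groups.

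Of 4 genes that block or shed neuroligins, Mdga2 rose. It encodes a membrane protein that binds neuroligins and keeps neurexins off them, and it went from 5929 ± 440 to 6805 ± 332 normalized counts (0.20, SE 0.050, adjusted p = 0.0185). Mdga1 (0.11, adjusted p = 0.320) and the protease gene Mmp9 (-0.38, adjusted p = 0.381) did not pass. Of 15 postsynaptic scaffold genes 0 passed with edgeR and 2 with DESeq2, with 2 at an unadjusted p under 0.05 in edgeR. The smallest p among them belonged to Dlgap4 (-0.09, adjusted p = 0.139), Shank1 (-0.45, adjusted p = 0.147) and Dlgap1 (-0.45, adjusted p = 0.186).

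For the lists that follow, the background in females is 25.1% of all genes tested, 11.9% as lower. Glypicans are heparan sulfate proteoglycans, some of which bind LRRTM4, and 1 of 6 passed. Gpc3 rose from 202 ± 56.1 to 280.2 ± 45.8 (0.48, adjusted p = 0.0835), while Gpc6 (0.17, adjusted p = 0.165) and Gpc4 (-0.65, adjusted p = 0.304) did not pass. Of 19 genes listed as LAR-type receptor phosphatases or postsynaptic adhesion proteins, 5 fell and 1 rose. Binding to LAR-type phosphatases was not examined for each of them. Lrfn3 (-0.19, adjusted p = 0.0136) and Lrfn4 (-0.17, adjusted p = 0.0228), which encode SALM proteins, and Lrrc4 (-0.14, adjusted p = 0.0229), which encodes NGL-2, fell. The STAR-family proteins control splicing of neurexin transcripts, and of 3 genes Khdrbs2 rose (0.29, adjusted p = 0.0914), while Khdrbs3 (-0.57, adjusted p = 0.101) and Khdrbs1 (0.01, adjusted p = 0.863) did not pass. The counts per gene carry no information on which neurexin exons were spliced in.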

How the data were processed

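RNA-seq was analysed in 24 NAc libraries, 6 per group, with groups taken from the sample labels. According to the study's methods and the processing notes, the authors sequenced 100 bp pairs, aligned them to mm10 with STAR 2.6.1b and the GENCODE M15 annotation, and tested genes with DESeq2. The authors deposited STAR's raw counts per gene, not normalized, as 3 columns for each library (unstranded and each strand). Pairs with several alignments, or on exons of several genes, do not enter these counts. The sense-strand column was used, which held 18.1 to 19.4 times the antisense counts, and 39.8% to 51.0% of the pairs in that column lay in rows that name no gene, such as pairs in no gene or in several places. These rows stayed out of library sizes and tests.

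Genes were filtered by filterByExpr (minimum count 10), normalized by TMM and tested with edgeR 4.0.16 (robust quasi-likelihood F test, limma 3.58.1, R 4.3.3), with Benjamini-Hochberg adjustment over all genes tested and a threshold of 0.10. The comparisons were MSUS with Con in each sex, females with males in each condition, and the group-by-sex interaction. Fold changes are on edgeR's log2 scale, SE is the fold change divided by the root of F, normalized counts are counts divided by DESeq2 1.42.0 size factors, and CPM used TMM library sizes and, on the log2 scale, a prior count of 2. Library values were compared by exact two-sided permutation tests, and correlations over libraries by 100000 permutations within groups. Positions, lengths and GC content came from GENCODE M21 on GRCm38, which holds 52489 of the 52636 gene identifiers. Tables and plots used Python 3.11.15 (scipy 1.17.1, numpy 2.4.6, matplotlib 3.10.9, pandas 2.3.3). The fit was tested on simulated counts with known changes.

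Genes named are the 8 themselves, the 3 genes with the smallest p in females in each of the 7 other lists, the 3 alpha-catenin genes, the 5 most abundant intron models, and, for each of the 8, the 3 best correlated protein-coding genes (group-centred log2 CPM, mean count 100 or more). The members and lists were chosen with earlier results of these data known. Of the striatal and cortical marker lists 1 gene each is not reported here, and both were left out of the lists after the data were seen. Estrous stage was not used, because some males have a stage in the labels and some females have none. The study's methods put estrous status in the model for females, with high- and low-estrogenic animals balanced in each group. The female fits here lack that term. Over 60 pairs of libraries within groups, none were copies (lowest chi-square per gene 6.34). The labels do not say whether animals of a group were littermates, and p values measure the spread between these animals. Alternatives were DESeq2, its size factors, other filters, unstranded counts, the replicate block, library set, no-gene share and cortical markers as covariates, GC and length offsets, a single fit, each library set alone, each animal left out and an adjusted p under 0.05. The libraries highest in cortical markers were left out, and the intron models counted, as choices made after seeing the data.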

Additional observations from a re-analysis of the deposited data

Results flagged for a closer look

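The values of 4 libraries stood apart from the other 5 of their group by Dixon's criterion at its 95% critical value for 6 samples. Of 40 groups of values examined, chance alone flags about 1 in 20.

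Nrxn2 had 26052 normalized counts in Con female 3, against 18809 to 21199 in the other Con females. Nrxn3 had 23500 in Con male 5, against 26964 to 28658 in the other Con males. Lrrtm3 had 4887 in MSUS male 6, against 6691 to 7306 in the other MSUS males. All 3 libraries are among the 6 highest in cortical markers, and the direction of each value is that of the gene's relation to these markers over all 24 libraries. The 3 libraries themselves entered that relation, so that the shared direction is not independent of it. The part of these markers in the values was not tested for single libraries.

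Lrrtm4 had 3442 normalized counts in MSUS female 1, against 3029 to 3165 in the other MSUS females. This library is the highest of its group in cortical markers, with which Lrrtm4 had no relation past the threshold.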

How the results depend on the processing

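In females 2 of the 8 genes passed under DESeq2, its size factors, other filters, unstranded counts, library set or cortical markers as a covariate, 1 fit of all 24 libraries, the replicate block, an adjusted p under 0.05, and without the 6 libraries highest in cortical markers. The pair was Nrxn2 and Nlgn2 throughout, except for Nlgn2 and Lrrtm1 with the marker covariate. The count was 0 within libraries 1 to 12, within 13 to 24 and with the no-gene share as a covariate, 1 with GC and length offsets and 1 with the block added to them (Lrrtm2 in both), and 2 to 3 with each animal left out. In the same fits all genes called were 23 of 20615, 0 of 20732, 0 of 20571, 3352 of 20571, 1773 of 20571 and, with animals left out, 3102 to 5737, against 5156 of 20571. The half-size sets hold 3 animals a group, and the cause of the other losses was not tested. In the interaction the count was 0 to 1 with each animal left out. Between the sexes in Con animals Nlgn2 passed (1 of 8) with DESeq2 and with unstranded counts.

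The 18 pathway calls became 10 without a filter, 10 at an adjusted p under 0.05, 11 in 1 fit of all libraries, 6 with cortical markers, 11 with GC and length offsets, 2 with the replicate block added to them, and 0 with the no-gene share or within either library set, and left-out animals gave 10 to 30 (30 without MSUS female 1, 10 without MSUS female 3, and 11 without Con female 2 or MSUS female 4, 5 or 6). All genes called were 3667 of 36411 without a filter, 3126 of 20571 at an adjusted p under 0.05, 4087 of 21500 in 1 fit and 1935 of 20571 with cortical markers. With DESeq2 26 of the 72 pathway genes passed, and 5786 of all 20571 genes. The 10 intron models called became 0 within either library set or with the no-gene share, 2 with GC and length offsets and 1 with the block added, and 8 to 11 with animals left out, while the 1003 of 1897 models called in all introns became 12, 0, 0, 498, 334 and 716 to 1079.

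The no-gene share differed between female groups by 9.18 points within libraries 1 to 12 and 5.37 within 13 to 24 (exact permutation p = 0.1 each, the smallest possible), and by 6.49 to 8.001 points with animals left out. In males it was 2.38 points within libraries 1 to 12 and -2.41 to 0.089 with animals left out (0.089 without MSUS male 6).

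Equal replicate numbers did not pair the samples. Same-numbered animals correlated between -0.37 and 0.40, and 3 of 24 pairs matched best with their own number. With the replicate block 3800 genes were called in females against 5156 without it, Nrxn2 had an adjusted p of 0.0998 and Nlgn2 of 0.0406, and the block changed no call among the 8.

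Log2 fold changes that had not passed the test changed sign as follows, in the order females, males, sexes in Con, sexes in MSUS, interaction. With the no-gene share they were Nrxn3 -0.026 and Lrrtm1 0.16, then Nrxn2 -0.021, Lrrtm1 0.0019 and Lrrtm3 0.0014, then Nrxn3 0.066, Nlgn1 0.11, Lrrtm3 0.052 and Lrrtm4 0.080, then Nrxn2 0.012, Nrxn3 -0.020, Nlgn2 0.041 and Lrrtm4 -0.011, then Nrxn2 0.0088, Nrxn3 -0.068, Nlgn2 0.012 and Lrrtm4 -0.031. With cortical markers as a covariate they were Nrxn3 -0.014, Nlgn1 -0.025, Lrrtm2 0.12 and Lrrtm3 -0.045, then Nrxn2 -0.0011, Lrrtm1 0.027 and Lrrtm2 -0.0098, then Nrxn3 0.034, Nlgn1 0.038 and Lrrtm3 0.078, then Nrxn3 -0.0097 and Nlgn1 -0.00696, then Nrxn3 -0.030, Nlgn1 -0.036, Lrrtm2 0.13 and Lrrtm3 -0.026. Without the 6 libraries highest in these markers they were Nrxn3 -0.013 and Lrrtm2 0.030, then Nrxn2 -0.010 and Lrrtm4 -0.017, then Nrxn3 0.0032, Nlgn1 0.027 and Lrrtm3 0.071, then Nlgn2 0.0096 and Lrrtm4 -0.0016, with no change in the interaction.

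With GC and length offsets, and in parentheses with the replicate block added, they were Nlgn1 -0.011 (-0.011), Lrrtm1 0.053 (0.053) and Lrrtm4 -0.11 (-0.11) in females, Nlgn2 0.0048 (0.0043) and with the block Lrrtm1 0.0083 in males, Nlgn1 0.084 (0.077) and Lrrtm4 0.10 (0.10) between the sexes in Con, Lrrtm2 -0.065 (-0.053) and Lrrtm4 -0.053 (-0.049) between the sexes in MSUS, and Nlgn1 -0.043 (-0.040), Lrrtm1 0.054 (0.044) and Lrrtm4 -0.15 (-0.15) in the interaction. Within libraries 1 to 12 they were Lrrtm1 0.093 and Lrrtm4 -3.4e-05 in females, Nrxn2 -0.19, Nrxn3 0.083, Lrrtm1 0.14, Lrrtm2 -0.070, Lrrtm3 0.12 and Lrrtm4 -0.022 in males, and Nrxn2 0.093, Nrxn3 -0.051, Nlgn2 0.046 and Lrrtm3 -0.0041 between the sexes in MSUS. Within libraries 13 to 24 they were Nlgn1 -0.079 and Nlgn2 0.065 in males, Lrrtm2 -0.049 between the sexes in MSUS and Lrrtm1 0.033 in the interaction. The replicate block alone gave Lrrtm1 0.0038 in males, unstranded counts Lrrtm2 -0.0041 between the sexes in MSUS, and at least 10 counts in every library Lrrtm1 0.0010 in the interaction.

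With animals left out in turn, values crossed 0 for Lrrtm1 in females (-0.071 to 0.040), and in males for Lrrtm1 (-0.052 to 0.060), Lrrtm2 (-0.025 to 0.084), Lrrtm3 (-0.086 to 0.044), Lrrtm4 (-0.018 to 0.053), Nlgn1 (-0.019 to 0.061), Nlgn2 (-0.044 to 0.021), Nrxn2 (-0.051 to 0.082) and Nrxn3 (-0.064 to 0.0077). They also crossed 0 between the sexes in Con for Lrrtm3 (-0.12 to 0.044) and Lrrtm4 (-0.13 to 0.00010), in MSUS for Lrrtm2 (-0.048 to 0.066), Lrrtm4 (-0.0096 to 0.040), Nlgn2 (-0.054 to 0.0016) and Nrxn3 (-0.0069 to 0.056), and in the interaction for Lrrtm1 (-0.073 to 0.046). No called value changed sign. Each of the 8 genes had at least 1867 pairs in every library, and depth and group size were not compared as limits.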

Other observations

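For each gene, the protein-coding genes whose levels moved most nearly with it across the 24 libraries were listed out of 12659 with a mean of at least 100 counts, by Pearson r of log2 CPM with group means removed. The animals, library sizes and the cortical and no-gene shares are common to all these values, so that r is given as a description. Lrrtm3 was nearest to Gng7 (r = 0.98), which encodes a G protein subunit abundant in the striatum, to Gpr6 (0.98), a receptor gene of striatal projection neurons, and to the channel partner gene Kcnip2 (0.97). Nrxn2 was nearest to Acot7 (0.97), Amigo1 (0.96), an adhesion protein gene, and the pannexin gene Panx2 (0.96). Nrxn3 was nearest to the cadherin gene Cdh8 (0.93), the active-zone gene Rims2 (0.92) and Zzz3 (0.92).

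Nlgn2 was nearest to Grina (0.94), Atp9a (0.94) and Rnf187 (0.93), and Nlgn1 to Gipc2 (0.92), the kinase gene Camk4 (0.91) and Klhl13 (0.90). Lrrtm2 was nearest to Ogfrl1 (0.94), the transcription factor gene Klf10 (0.91) and Dusp6 (0.91), which encodes a phosphatase of ERK. Lrrtm1 was nearest to the calcium sensor gene Stim1 (0.93), Fcho1 (0.92) and Fgf3 (0.91), and Lrrtm4 to Sike1 (0.89), Mgat4c (0.89) and Appl1 (0.88). No gene was shared between these lists.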
